A study of Mus musculus with 3 samples.

Results

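The cytosolic ribosome translates nuclear messenger RNA, and its protein part is encoded by the Rpl genes for the large subunit and the Rps genes for the small subunit, together with Rplp0, Rplp1, Rplp2 and Rpsa. The genes described here are the autosomal protein-coding genes of the GENCODE annotation (release M21, mm10) with such a symbol. They number 81 of 20807 autosomal protein-coding genes. Of these, 43 encode large subunit proteins, 30 encode small subunit proteins and 7 are paralogs (Rpl22l1, Rpl36al, Rpl39l, Rpl3l, Rpl7l1, Rps27l and Rps27rt). The remaining gene, Rps19bp1, has a matching symbol but encodes a protein that binds Rps19.

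Ribosomal protein genes are known as housekeeping genes: their products are needed in matched amounts for every new ribosome, and they are active in nearly all growing cells. Their messages typically begin with a C and a run of pyrimidines, the terminal oligopyrimidine (TOP) tract, through which translation responds to growth signals, and many of their introns hold small nucleolar RNAs (snoRNAs), which guide the modification of ribosomal RNA. H3K4me3, trimethylation of lysine 4 of histone H3, marks the starts of active genes in most cells, and in meiotic cells the methyltransferase PRDM9 adds the same mark at recombination hotspots.

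H3K4me3 was measured by ChIP-seq in whole adult testis of (C57BL/6J x CAST/Eij)F1 males whose Prdm9 genotype was Humanized/CAST, the first allele encoding the zinc fingers of human PRDM9. There was 1 condition, with 2 H3K4me3 ChIP libraries (replicate 1 and replicate 2) and 1 input library of chromatin without antibody, so nothing could be compared between conditions and no test was made. Each replicate came from 1 testis, but the series description speaks of a single male and the methods of littermates, so the spread between replicates may be technical. Because whole testis mixes germ cells of all stages with Sertoli, Leydig and other somatic cells, more marked cells and more mark per cell cannot be told apart.

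The deposited narrow peaks number 101978, and the value of each is the number of fragments that cover its centre, a single base, so that gene length does not enter it. Summed over the narrow peaks, replicate 1 held 17621116 fragments, replicate 2 held 19094837 and the input library held 1250138, and the median peak had 26, 31 and 8. The counts are not scaled for depth. Of 6 genes that mark meiotic cells and spermatids, 5 had a peak at a start. Sycp3, a protein of the meiotic chromosome axis, had 2006 and 2095 fragments in replicates 1 and 2, Ddx4 1738 and 1871, and Dazl 1116 and 1277. The spermatid genes Tnp1 and Prm1 had only 165 and 160 and 126 and 125, and Acrv1 had no narrow peak. Their broad peaks, runs of enriched bins near a start, were wide. They measured 22800 bp at Tnp1, 23900 bp at Prm1 and 7600 bp at Acrv1, against a median of 3300 bp for all genes. A count at a single base does not describe such a region. Of 3 Sertoli cell markers 2 had a narrow peak, Wt1 with 489 and 484 and Sox9 with 311 and 302. The 3 Leydig cell markers had narrow peaks of 10 to 58 fragments in replicate 1. Of 6 genes of other tissues only Gfap had a narrow peak, with 22 and 39 fragments against 18 in the input.

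Promoter sequences were read for 61 of the 81 genes from RefSeq (GRCm38.p6), from 250 bases before to 50 after each of 73 starts. Those of 6 genes are shown as examples, a single start each, although Rpl19 and Rpl3l have 2 RefSeq starts. Rpl19 and Rpl27a come from among the highest values and Rps9 and Rpl3l from among the lowest. Rplp0 and Rps6 are core members of the large and small subunit. The RefSeq start is base 251 of each line. Capitals mark a TOP tract (a C and at least 4 pyrimidines on the gene strand) that begins within 10 bases of the start, and, on either strand, short motifs. These are CCGGAAG, which ETS factors bind, TATAAA, the core of the TATA box, AAGATGGC, the core of the YY1 motif, GGGCGG, which SP factors bind, and TCGCGA, a palindrome known from housekeeping promoters. Overlapping matches run together in 1 stretch of capitals.
Rpl19: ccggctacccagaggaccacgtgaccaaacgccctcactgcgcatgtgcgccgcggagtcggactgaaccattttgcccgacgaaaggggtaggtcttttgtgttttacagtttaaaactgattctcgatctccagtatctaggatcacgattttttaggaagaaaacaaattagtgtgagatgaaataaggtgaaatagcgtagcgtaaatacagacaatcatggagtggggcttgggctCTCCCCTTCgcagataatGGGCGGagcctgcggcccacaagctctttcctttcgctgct
Rpl27a: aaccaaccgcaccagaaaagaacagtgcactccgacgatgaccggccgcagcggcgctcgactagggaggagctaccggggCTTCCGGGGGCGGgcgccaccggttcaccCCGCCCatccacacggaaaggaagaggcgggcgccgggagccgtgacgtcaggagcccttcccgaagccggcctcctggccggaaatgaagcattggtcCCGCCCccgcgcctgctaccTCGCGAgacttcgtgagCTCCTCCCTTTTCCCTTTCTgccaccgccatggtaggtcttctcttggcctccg
Rps9: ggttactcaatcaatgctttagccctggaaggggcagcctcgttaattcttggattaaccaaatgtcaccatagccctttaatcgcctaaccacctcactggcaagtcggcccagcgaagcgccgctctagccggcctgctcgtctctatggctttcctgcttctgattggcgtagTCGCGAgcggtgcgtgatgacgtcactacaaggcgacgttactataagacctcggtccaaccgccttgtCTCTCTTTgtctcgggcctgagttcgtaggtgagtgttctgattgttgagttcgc
Rpl3l: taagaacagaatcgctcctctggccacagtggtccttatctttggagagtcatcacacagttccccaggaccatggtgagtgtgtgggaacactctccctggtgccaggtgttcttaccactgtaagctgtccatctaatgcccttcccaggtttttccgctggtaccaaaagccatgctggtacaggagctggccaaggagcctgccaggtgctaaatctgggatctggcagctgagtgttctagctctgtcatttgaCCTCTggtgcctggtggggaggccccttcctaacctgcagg
Rplp0: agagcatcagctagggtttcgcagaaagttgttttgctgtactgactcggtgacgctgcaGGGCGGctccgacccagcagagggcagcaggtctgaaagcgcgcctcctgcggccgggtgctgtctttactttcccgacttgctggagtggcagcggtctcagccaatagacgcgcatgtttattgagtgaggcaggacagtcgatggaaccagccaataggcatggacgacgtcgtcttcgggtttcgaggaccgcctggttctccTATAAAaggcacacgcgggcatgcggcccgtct
Rps6: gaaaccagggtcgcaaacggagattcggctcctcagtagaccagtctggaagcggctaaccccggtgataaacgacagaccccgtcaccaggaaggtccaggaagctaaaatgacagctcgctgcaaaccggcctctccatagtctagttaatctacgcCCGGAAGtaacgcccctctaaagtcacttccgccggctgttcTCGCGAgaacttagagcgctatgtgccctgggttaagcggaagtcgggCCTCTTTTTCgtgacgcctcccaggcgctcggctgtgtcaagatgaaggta

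The Rpl19 promoter lies at chr11:98026674-98026973, that of Rpl27a at chr7:109518945-109519244, that of Rps9 at chr7:3703791-3704090, that of Rpl3l at chr17:24727576-24727875 and that of Rplp0 at chr5:115559217-115559516, all on the plus strand, while that of Rps6 lies at chr4:86857318-86857617 on the minus strand. Rpl27a, which had 2384 and 2349 fragments, carries the longest pyrimidine tract of the lines above. Further upstream its line holds 3 matches of GGGCGG as well as CCGGAAG and TCGCGA. Rpl3l, with 104 and 153 fragments, shows only a short tract of 5 bases that begins 9 bases past the start and none of the other motifs. Rplp0 has no TOP tract within 10 bases of this RefSeq start, and its TATAAA begins 17 bases past it.

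Nearly every ribosomal protein gene carried H3K4me3 at a start. A narrow peak was centred within 1 kb of an annotated transcript start at 80 of 81 genes (98.8%), against 77.3% of all autosomal protein-coding genes. A broad peak, a run of enriched bins of 100 bp, lay within that distance at 80 genes as well, against 80.1% of all genes. All 43 large subunit and all 30 small subunit genes had both kinds of peak. The exception was Rps27rt, a copy of Rps27 of 374 bp that arose by retrotransposition, which had neither. Among the paralogs, 6 of 7 therefore had a peak.

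The peaks were strong and of similar height. Of the narrow peaks at a gene's starts, the one with most ChIP fragments stands for the gene. The 80 genes had a median of 1538.5 fragments in replicate 1, of 1654.5 in replicate 2 and of 21 for the input. All 16086 autosomal protein-coding genes with a peak had medians of 756, 826 and 20. The ChIP medians of ribosomal protein genes were thus higher in both replicates, while the input medians lay close together. The quartiles of replicate 1 were 1214.5 and 1865.75 for the ribosomal protein genes, and 235 and 1450 for all genes. By the sum of both replicates, 76 of 80 (95%) lay above the median of all genes with a peak. In the top 10% lay 13 of 80 (16.25%), against 10% of all genes by construction. Most ribosomal protein genes therefore sat in the upper part of the range of coding genes, but not at its extreme.

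**Figure D1:**
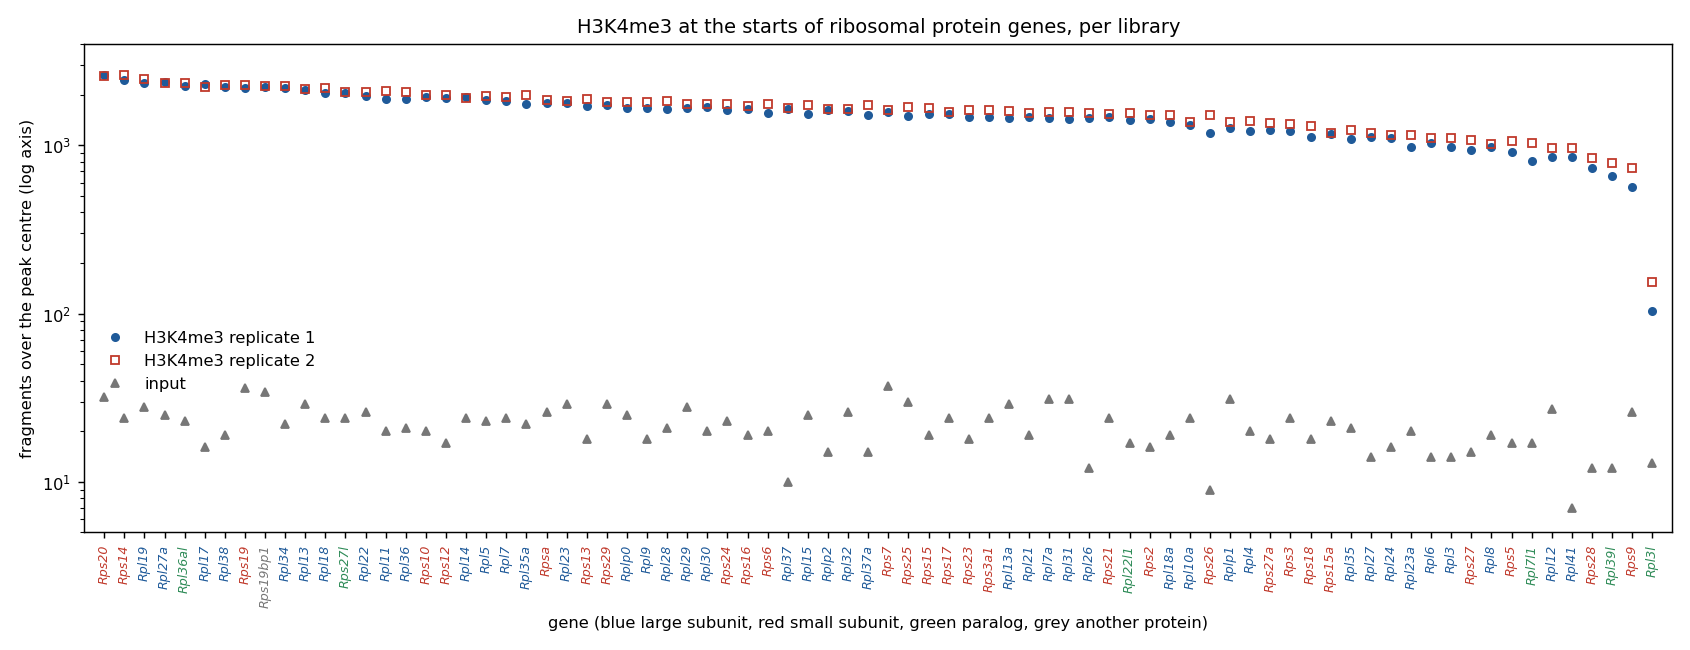
Fragments over the strongest narrow peak centre (log axis) for 78 of the 80 ribosomal protein genes with a peak, sorted by the sum of both ChIP replicates, with replicate 1 as filled circles, replicate 2 as open squares and the input as triangles. ChIP values run from 2610 and 2593 at Rps20 to 104 and 153 at Rpl3l, and the input stays between 7 and 37.

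The spread within the group was narrow. The upper quartile of the summed ChIP fragments was 1.47 times the lower quartile for the ribosomal protein genes, against 6.06 times for all genes. Genes of other large protein assemblies were used for comparison. The mitochondrial ribosome, which is built of separate Mrpl and Mrps proteins, had a peak at 78 of 78 genes, with medians of 1264 and 1338 fragments and a ratio of quartiles of 1.64. The proteasome, the protease that degrades ubiquitin-tagged proteins, had a peak at 38 of 39 genes, with medians of 1512.5 and 1656 and a ratio of 1.60. The cytosolic ribosomal protein genes thus had higher medians than the mitochondrial ones in both replicates. Against the proteasome genes, their median was higher in replicate 1 (1538.5 against 1512.5) and slightly lower in replicate 2 (1654.5 against 1656).

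Large and small subunit genes overlapped over nearly all of their range. The large subunit genes had medians of 1621 fragments in replicate 1 and 1724 in replicate 2, and the small subunit genes 1512 and 1622.5. The difference of the medians was 109 in replicate 1 and 101.5 in replicate 2, and 65.5 when each gene's replicates were averaged first. In replicate 1 the large subunit genes ran from 851 to 2384 and the small subunit genes from 563 to 2610. The small subunit genes held the highest as well as the lowest of these values.

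**Figure D2:**
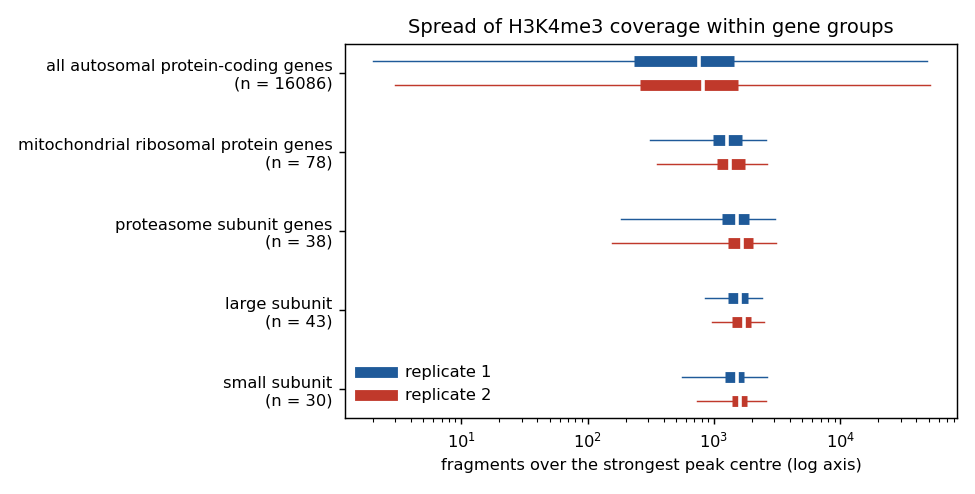
Fragments over the strongest peak centre (log axis) for all autosomal protein-coding genes with a peak and for 4 groups of genes, with replicate 1 in blue and replicate 2 in red, where thick bars span the quartiles, white marks the median and thin lines run from the lowest to the highest gene. The bars of both ribosomal subunits are much shorter than those of all genes, whose quartiles in replicate 1 are 235 and 1450.

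The highest value was that of Rps20, a protein of the head of the small subunit, with 2610 and 2593 fragments in replicates 1 and 2 over an input of 32. Its peak centre lay at position 3835441 of chromosome 4, in an exon 47 bp downstream of a start. Rps14, a protein of the platform of the small subunit, had 2445 and 2603 fragments over an input of 24. Both replicates of either gene exceeded the highest input value of any member, 37, many times over.

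The top 10% of genes with a peak held 16.3% of the large and 13.3% of the small subunit genes. Rpl19, whose product helps to bridge the subunits, had 2342 and 2477 fragments and 28 in the input. Rpl27a had 2384 and 2349 fragments and 25 in the input. Rpl17, whose product lies at the exit of the peptide tunnel, had 2306 and 2218 fragments and 16 in the input. The paralog Rpl36al stood between them with 2257 and 2341 fragments and an input of 23, but its peak centre lay 312 bp upstream of its nearest start and also within 1 kb of a start of Mgat2, an enzyme of glycan synthesis. The value of Rpl36al can therefore not be assigned to that gene alone.

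The lowest values included paralogs and core proteins. Rpl3l, the paralog of Rpl3 that is used in heart and skeletal muscle, had 104 and 153 fragments over an input of 13. Its ChIP mean was 9.88 times its input (95% exact interval 5.68 to 18.8), against a median ratio of 75.1 for the ribosomal protein genes. This interval, like all others here, covers counting error only. Rpl3l was the one gene of the group far below the rest, and 83.8% of all genes with a peak reached at least its ChIP sum.

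Rps9, a small subunit protein near the entry of the messenger RNA, was next from the bottom among all members, with 563 and 730 fragments and 26 in the input. Rpl39l, the paralog of X-linked Rpl39 that is used in male germ cells, had 656 and 781 fragments and 12 in the input. Rps28 had 734 and 837 fragments over 12. These 3 genes and Rpl3l were the only members below the median of all genes with a peak by the sum of both replicates. In replicate 2 alone, Rps28 was just above that median.

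Rpl41, the shortest ribosomal protein, had 851 and 962 fragments and only 7 in the input. Its ratio of 129.5 to the input was therefore among the highest, with an interval from 62.7 to 322.6. Rpl12, at the base of the stalk, had 854 and 966 fragments over an input of 27, a ratio of 33.7 (23.1 to 51.3). Rpl12 and Rpl41 had nearly the same ChIP values and differed in the input, and the intervals of their ratios did not overlap.

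The proteins of the stalk, which recruits translation factors to the large subunit, had intermediate values. Rplp0, its base, had 1673 and 1820 fragments over an input of 25. Rplp1 had 1262 and 1368 over 31, and Rplp2 had 1621 and 1643 over 15. Rplp1 lay below the other stalk genes in both replicates.

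A few genes picked by name for their part in ribosome stress, disease or signalling lay in the middle or above. They do not stand for all ribosomal protein genes with such ties, which were not looked at as a set. Rpl5 and Rpl11, which bind MDM2 together with 5S ribosomal RNA, had 1862 and 1955 fragments and 1877 and 2114 fragments. Rps19, the gene most often mutated in Diamond-Blackfan anaemia, had 2184 and 2282. Rps6, the substrate of the S6 kinases, had 1565 and 1771, the lowest of these genes. Rpsa, also known as the laminin receptor, had 1781 and 1853. All of these lay above the group medians in both replicates, Rps6 by the smallest margin.

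The remaining paralogs spread widely. Rps27l had 2053 and 2080 fragments over an input of 24, Rpl22l1 1404 and 1548 over 17, and Rpl7l1, a nucleolar relative of Rpl7, 809 and 1032 over 17. Rps19bp1, which is no ribosomal protein, had 2218 and 2237 fragments over 34. Without the paralogs and Rps19bp1, the lowest of the 73 ribosomal proteins proper was Rps9, and the ratio of the quartiles was 1.44.

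The mark was centred just inside the genes. The strongest peak centre lay downstream of the nearest annotated start at 66 of 80 genes (82.5%), against 77.4% of all genes. The median distance was 131 bp downstream, with quartiles of 33.25 and 176.5 bp, and 129 bp for all genes. Between 0 and 300 bp downstream lay 65 of 80 (81.25%), against 62.7% of all genes. The centre was in an exon at 55 genes (68.75%), in an intron at 21 (26.25%) and outside the gene at 4 (5%), against 55.3%, 32.9% and 11.8% of all genes. These 4 were Rpl36al, Rpl7, Rpl13a and Rpl4, at 312, 502, 408 and 661 bp upstream. Ribosomal protein genes have more annotated starts than most, with a median of 6 per gene against 3. With starts of protein-coding transcripts of the basic set alone, the median distance was 190.5 bp.

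**Figure D3:**
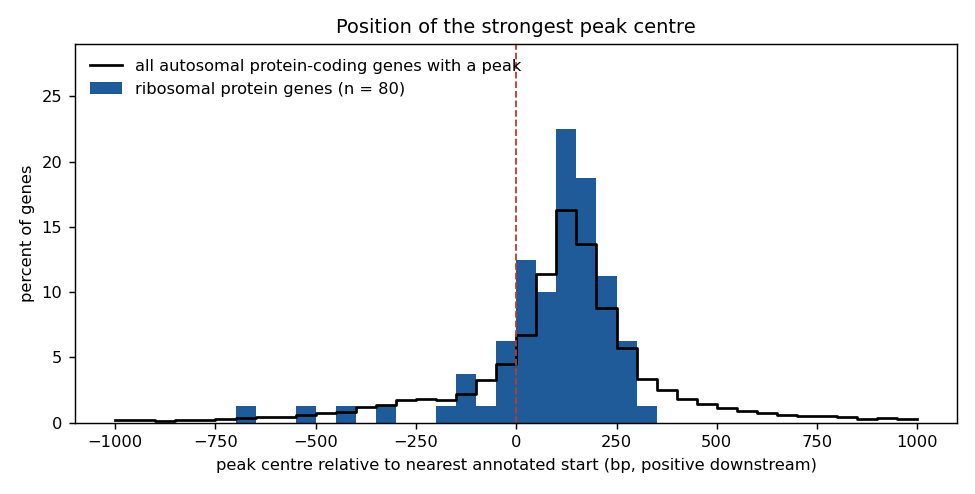
Percent of genes by the position of the strongest peak centre relative to the nearest annotated start (bp, positive downstream, bins of 50 bp), with bars for the 80 ribosomal protein genes and a line for all autosomal protein-coding genes with a peak. Both distributions peak downstream of the start, with medians of 131 and 129 bp.

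Broad peaks were of usual width. The widest broad peak near a start had a median width of 3400 bp, against 3300 bp for all genes. It covered a larger part of the gene, since ribosomal protein genes are short: their median length was 3431 bp, against 17629 bp for all genes. The broad peak that holds the strongest centre enclosed the whole gene at 18 of 80 ribosomal protein genes (22.5%), against 5.65% of all genes. Examples are Rplp1 and Rps29.

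The widest broad peaks were those of Rpl18, Rpl27a and Rpl35. That of Rpl18 measured 18400 bp, with starts of the coding genes Fam83e, Spaca4 and Sphk2 inside it. That of Rpl35 measured 14000 bp and held starts of Arpc5l and Wdr38. That of Rpl27a measured 14500 bp and held no coding start but its own. Of the 12 broad peaks over 6 kb, 10 held the start of another coding gene that is no ribosomal protein gene, and of the 66 up to 6 kb, 9 did. A longer peak has more room for further starts, and the same share over all genes was not computed.

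The narrowest broad peaks were those of Rpl3l with 1100 bp, Rps19bp1 with 1900 bp, and Rps23 and Rps27l with 2000 bp each. Rps23, a protein of the decoding centre, nevertheless had 1482 and 1617 fragments. Across the 80 genes, height and width were hardly related (Spearman's rho of ChIP fragments and width 0.03, described without a test; all points come from the same libraries). Across 16066 autosomal protein-coding genes rho was 0.45. At Rpl36al no broad peak held the narrow peak centre, which fell into a gap of the deposited broad peaks.

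**Figure D4:**
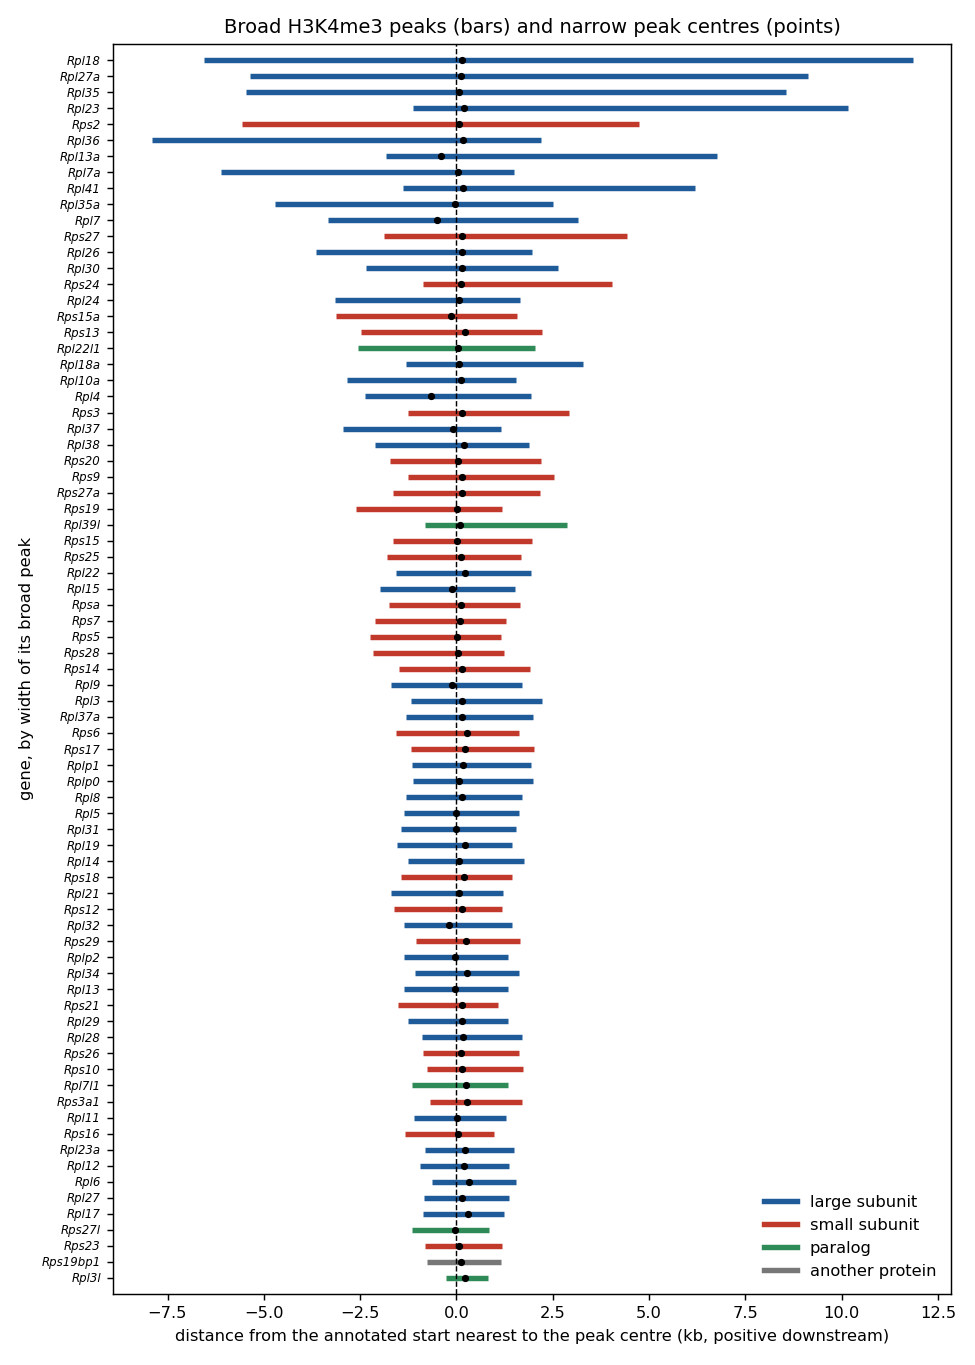
Broad H3K4me3 peaks that hold the strongest narrow peak centre of 77 ribosomal protein genes, drawn as bars relative to the annotated start nearest to that centre (kb, positive downstream) and sorted by width, with the centre as a point and the role of the gene by colour. The bars of Rpl18, Rpl27a and Rpl35 are the longest and that of Rpl3l is the shortest.

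The peaks all lay where H3K4me3 does not depend on PRDM9. The strongest peak centre was inside a PRDM9-independent region, that is a region marked in mice with different Prdm9 alleles, at 80 of 80 genes, against 92.2% of all genes with a peak. PRDM9-dependent narrow peaks, those outside such regions, lay within 5 kb of a start at 21 of 81 genes (25.9%), against 39.8% of all genes. Within 10 kb they lay at 54 (66.7%), against 57.7% of all genes. The share was thus below that of all genes at the shorter distance and above it at the longer.

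Most genes had a single narrow peak. At 6 of 81 genes (7.41%), 2 narrow peaks lay within 1 kb of a start, against 18.3% of all genes with 2 or more, and no gene had 3. These genes were chosen after their values were seen: Rpl11, Rpl18, Rpl3, Rps14, Rps2 and Rps24. At 5 of them, all but Rpl11, the further peak also lay within 1 kb of a coding start of a neighbour. At Rps24 it lay 4.14 kb from the strongest one, near Polr3a, with 959 and 1241 fragments, 65.1% of the strongest peak. At Rps14 it lay 26.8 kb away, near Ndst1, with 469 and 511 fragments. At Rpl11 it lay 24.9 kb away and had only 10 and 19 fragments over an input of 3.

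Sharing of the strongest peak was also measured. At 16 of 80 genes (20%) it lay within 1 kb of a start of another coding gene, against 16.7% of all genes, counting at Rps10 the readthrough annotation RPS10-NUDT3. Rps28, near Ndufa7, and Rpl12, near Lrsam1, were among them, so their values above cannot be assigned to them alone. Those 16 had medians of 1473.5 and 1628 fragments, and the 64 with a peak of their own 1570.5 and 1654.5. The ranges overlapped and the medians lay close together.

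snoRNA host genes were common among them. In 28 of 81 genes (34.6%) the annotation places at least 1 snoRNA, against 1.17% of all genes, with 56 snoRNAs in all and up to 5 in Rpl4. The 28 hosts had medians of 1613 and 1646.5 fragments, and the 52 other genes with a peak 1530.5 and 1673.5. The hosts were higher in replicate 1 and lower in replicate 2, so no difference between hosts and others held in both replicates.

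The promoters were rich in CpG, while their GC content was close to that of all promoters. Their median GC content was 59%, against 57% of all 20084 RefSeq promoters, and the ratio of observed to expected CpG was 0.871, against 0.586. A TOP tract began within 10 bases of the start in 39 of 73 promoters (53.4%), against 31.4% of all promoters. Exactly at the first base it began in 14 (19.2%), against 2.23%. CCGGAAG was held by 26 (35.6%), against 11.9%, and TCGCGA by 15 (20.5%), against 3.29%. GGGCGG was found in 43 (58.9%), against 47.0%, and AAGATGGC in 8 (11.0%), against 3.06%. TATAAA was rarer than in all promoters, with 5 of 73 (6.85%) against 12.7%. A match describes letters in the window and is no proof of a bound factor.

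Letters and mark were set side by side for the 60 genes with a peak and a promoter. The 36 with a TOP tract within 10 bases had medians of 1512 and 1622.5 fragments, and the 24 without 1582 and 1702.5. The 25 with CCGGAAG had 1542 and 1643, and the 35 without 1526 and 1717. The medians with a TOP tract were thus lower in both replicates, while for CCGGAAG the direction differed between the replicates. In both splits the ranges overlapped over most of their extent, and neither difference was tested. Spearman's rho of ChIP fragments and the CpG ratio across the 60 genes was 0.10.

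The replicates ranked the genes alike. Spearman's rho of replicate 1 and replicate 2 across the 80 genes was 0.99. Over all narrow peaks, replicate 1 held 48.0% of the ChIP fragments of both. The exact 95% interval of a gene's share left this value at 12 of 80 genes (15%), against 21.5% of all genes with a peak. In 8 of them replicate 1 was high and in 4 replicate 2 was. At Rpl3l replicate 2 was 1.47 times replicate 1, with a replicate 1 share of 40.5% (34.4 to 46.7). At Rps9 the ratio was 1.30, with a share of 43.5% (40.8 to 46.3). At the other end, the ratio was 0.962 at Rpl17. The 2 genes at the top of this order, Rpl3l and Rps9, also had the lowest fragments, and their levels differed most between the replicates. Low fragments and high ratios did not go together throughout. The ratio was 1.28 at Rpl7l1 and 1.27 at Rps26, which had sums of 1841 and 2686 fragments. At Rpl39l, with a lower sum of 1437, it was 1.19, and the interval of its share held the overall value.

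Other genes of the translation machinery had peaks of like height. Of a list of 30 genes of ribosomal proteins outside the naming rule, elongation and initiation factors, nucleolar proteins and regulators of growth, 30 had a peak, 27 lay above the median of all genes with a peak and 6 in the top 10%. Their medians were 1531 and 1616 fragments. Fau, which encodes a ubiquitin-like protein fused to a small subunit protein, had 1942 and 2088 fragments. Rack1, a scaffold protein of the small subunit, had 730 and 748. Fau was above the medians of the ribosomal protein genes, and Rack1 was below most of these genes, with all but 3 higher by the sum of both replicates. The peak centre of Fau also lay within 1 kb of a start of Mrpl49, so its value cannot be assigned to Fau alone.

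Pseudogenes of ribosomal proteins had little of the mark. Autosomal genes with -ps in an Rpl or Rps symbol number 265. Of these, 252 are annotated as processed pseudogenes, copies inserted by retrotransposition, and 6 as protein-coding. Processed copies annotated as transcribed, such as Rpl29-ps2, have a label of their own and are not among the 252. Of the 265, 71 (26.8%) had a narrow peak within 1 kb of their start. At 67 of them no coding start lay near. Those 67 had medians of 31 and 35 fragments over an input of 8, and the highest had a sum of 643 for both replicates. Only 26 of the 67 had their strongest peak centre inside a PRDM9-independent region, against all 73 ribosomal proteins proper. The others of the 67 were PRDM9-dependent by the definition above. Whether their peaks belong to the pseudogenes or only lie near them was not tested. The lowest sum of any ribosomal protein proper, that of Rps9, was 1293. In summed fragments, the peaks of pseudogenes away from coding starts therefore did not overlap those of the ribosomal proteins proper. Their median input of 8 was below the 21 of those genes, and by the deposited enrichment over local background the groups did overlap. The median enrichment of the 67 was 4.10. Rpl28-ps1 had 50.0 over an input of 2 and Rpl27-ps1 had 28.7 over 5, against 23.3 at Rps9.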

How the data were processed

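H3K4me3 ChIP-seq fragments were measured in 2 ChIP libraries and 1 input library of whole testis. According to the methods, the authors used BWA and then Stampy for alignment (mm10), discarded likely PCR duplicates, improper pairs and pairs with no read of mapping quality above 0, and called peaks with their own published algorithm. A single set of narrow peaks serves both replicates. The narrow peaks were deposited with fragment counts per library at their centres, with an enrichment (a ratio over local background estimated by the authors) and with a p-value. The authors required p under 1e-06 for narrow and 1e-05 for broad peaks. For broad peaks and for the PRDM9-independent regions, only positions were deposited. The submitters' processing notes name BWA, SAMtools and bedtools.

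Counts were used as deposited, without scaling for depth. Starts came from GENCODE release M21. A gene took the narrow peak with most ChIP fragments among those centred within 1 kb of any of its starts. Intervals of shares and ratios are exact (95%) and cover counting error only. The named genes are the 6 highest and 6 lowest by ChIP fragments, those with the 3 widest and 3 narrowest broad peaks, members without a peak, paralogs, the stalk genes, Rpsa, Rps6, Rps19, Rpl5, Rpl11, the 2 highest and 2 lowest ratios of the replicates, and Fau and Rack1. Single values of a few genes that this rule names, or that the figures by gene would show, are not reported here. The members and lists were chosen with earlier results of these data known. Python 3.11.15, numpy 2.4.6, pandas 2.3.3 and scipy 1.17.1 were used, and the scripts were tested on simulated data.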

Additional observations from a re-analysis of the deposited data

How the results depend on the processing

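Of 60 alternative values, 50 stayed within the limits set for them. The number of genes with 2 or more narrow peaks was 10 with starts within 2 kb and 2 with basic protein-coding starts, in place of 6. With those starts the median distance of the peak centre was 190.5 bp in place of 131. The number of promoters with a TOP tract was 14 at the first base only and 59 within 25 bases, in place of 39. The deposited enrichment, which is in another unit, had a median of 70.6, with a difference of 7.93 between large and small subunit genes, and put 19 genes in the top 10% in place of 13. Leaving out 1 replicate at a time gave medians of 1538.5 to 1654.5 fragments, 13 to 14 genes in the top 10% and a difference of 101.5 to 109 between large and small subunit genes, in place of 65.5, so the direction of that difference was the same and its size was not. PRDM9-dependent peaks lay within 10 kb of 54 genes in place of 21 within 5 kb, an alternative chosen after seeing the data, as was the use of the broad peak that holds the strongest centre, which left the median width at 3400 bp. No paired analysis was possible because the single input carries no replicate that could be matched to both ChIP libraries. Input counts of 7 to 37 limit the precision of every ratio to the input.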

Other observations

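The ribosomal protein genes of the X chromosome, which the list above leaves out, had much lower fragment counts, and they were looked at after the autosomal results were known. The X chromosome has no homologue in males, and the counts are not scaled for the number of copies. Rpl39 had 179 and 178 fragments in replicates 1 and 2, over an input of 10. Rpl10 had 145 and 145 over an input of 5, Rps4x had 152 and 180 over 12, and Rpl36a had 190 and 205 over 8. In fragments, all of them lay below every autosomal ribosomal protein gene but Rpl3l in both replicates. Their inputs of 5 to 12 were also below the autosomal median of 21, and by the deposited enrichment the order was not the same: Rpl10 had 27.2 and Rpl36a 23.1, against 23.3 at Rps9, while Rpl39 had 16.7 and Rps4x 12.9. They were close to the X-linked coding genes as a whole, of which 758 of 948 had a peak, with medians of 171.5 and 192 fragments and 6 in the input. Rpl10l, an autosomal retrotransposed copy of Rpl10 that is used in male germ cells and has a symbol outside the naming rule, had 1366 and 1313 fragments over an input of 27. Its fragments were several times those of Rpl10 in each replicate, but its input was higher too, and its deposited enrichment was 46.6 against 27.2. Rpl39l, the autosomal paralog of Rpl39, had 656 and 781 fragments over an input of 12. Rpl36al, the autosomal paralog of Rpl36a, had 2257 and 2341 fragments over an input of 23. Its peak also lay near a start of Mgat2, so this value cannot be assigned to Rpl36al alone.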
